A study of Rattus norvegicus with 7 samples.

Results

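The genes described here are the carriers of amino acids and short peptides in crypts, the epithelial pits of the colon, taken from outbred rats of the Sprague Dawley strain. They were chosen by symbol, as every gene of the solute carrier (SLC) families SLC1, SLC3, SLC6, SLC7, SLC15, SLC36, SLC38 and SLC43, which gave 63 of the 16468 genes kept from the RNA table. Messenger RNA was measured in 1 library of distal colon crypts and 1 library of proximal colon crypts, each from 7 rats aged 14 weeks whose samples were pooled, with no treatment or genetic change named in the labels. The label of the set was met by most members but not all. Slc7a6os matched by its name alone and encodes no carrier, Slc43a3 is known as a purine carrier, and within SLC6 some members carry monoamines, creatine or taurine.

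Since each region has 1 pooled library, replicates give no spread here, no test of the regions was possible, and each difference below compares these 2 libraries without a replicate check. Levels were read as FPKM, fragments per length of transcript and per size of library, a unit taken from the form of the values since the table does not name it, and one which allows levels of different genes to be compared within a library. The distal and proximal columns summed to 463340 and 412814 FPKM over the 16468 genes, while read totals are not stated in the sources used here. Going by genes of about 942 bases, 3 reads stood near 0.339 FPKM in distal crypts and 0.426 FPKM in proximal crypts, and lower for longer genes. Where the lower of both values was at or under that level, no plain fold is printed. Log2 values of such genes (Slc15a1, Slc7a15 and Slc38a4) rest on the pseudocount, or on the model behind the authors' deposited table, and are no bounds. In bulk crypt RNA, fewer cells of a type and less RNA per cell cannot be told apart.

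Amino acids cross an epithelium in steps: carriers of the brush border take them up from the lumen, and others in the basolateral membrane release them to the blood or feed the cell from it. Many of the SLC7 carriers are light chains that reach the membrane only when bound to a heavy chain of SLC3. Peptide carriers of SLC15 use protons to drive uptake, most SLC1, SLC6 and SLC38 carriers use sodium, and the small intestine, not the colon, is the main site of amino acid absorption.

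Of the 63 members, 36 reached 1 FPKM in at least 1 library and are called measured. Among these, 4 were higher in distal crypts by 2-fold or more, as were 3.71% of all 9847 measured genes, and 3 were higher in proximal crypts by 2-fold or more, as were 3.91% of all measured genes. The count uses the log2((distal FPKM + 1)/(proximal FPKM + 1)) scale, called the log2 ratio below, which understates differences of low genes. The 4 were the peptide carrier Slc15a1, the amino acid carriers Slc7a15 and Slc43a1 and the glycine carrier Slc6a5. The 3 were the neutral amino acid carrier Slc38a4 and the light chains Slc7a7 and Slc7a9. Together the 7 were 19.4% of the measured members, against 7.62% of all measured genes and 14.4% of 160 other measured Slc genes, of which 8 were higher in distal crypts and 15 in proximal crypts. The median log2 ratio was 0.07 over the 36 members, 0.09 over all measured genes and 0.06 over the other Slc genes. By the plain ratio of FPKM values 3 more members were past 2-fold on the proximal side, Slc6a7 (3.04-fold), Slc38a8 (2.53-fold) and Slc15a3 (2.07-fold). The 4 and 3 became 0 and 0 with a pseudocount of 5 FPKM, and 4 and 5 after rescaling the libraries to equal medians or equal upper quartiles, which added Slc6a6 and Slc6a7 on the proximal side.

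The members that differed most had low levels. Of 14 members whose higher value was 1 to 5 FPKM, 6 were at least 2-fold apart, against 11.6% of all genes of that class. From 5 to 20 FPKM it was 1 of 13, Slc7a7, against 6.55%. From 20 FPKM it was 0 of 9, against 6.71%. Low values also carried more error: the standard error implied by the authors' deposited table was in the median 0.65 (log2) in the lowest class and 0.32 in the highest. That table called 4 members higher in distal crypts, beside 2.73% of 10099 genes marked as tested, and 1 member higher in proximal crypts, beside 2.69% of them. The 5 called in the authors' deposited table were Slc7a15, Slc43a1, Slc6a5, Slc1a5 and Slc38a4, out of 37 members that it tested, beside 5.43% of all genes tested. Its errors come from the model behind that table and do not measure variation between rats.

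**Figure D1:**
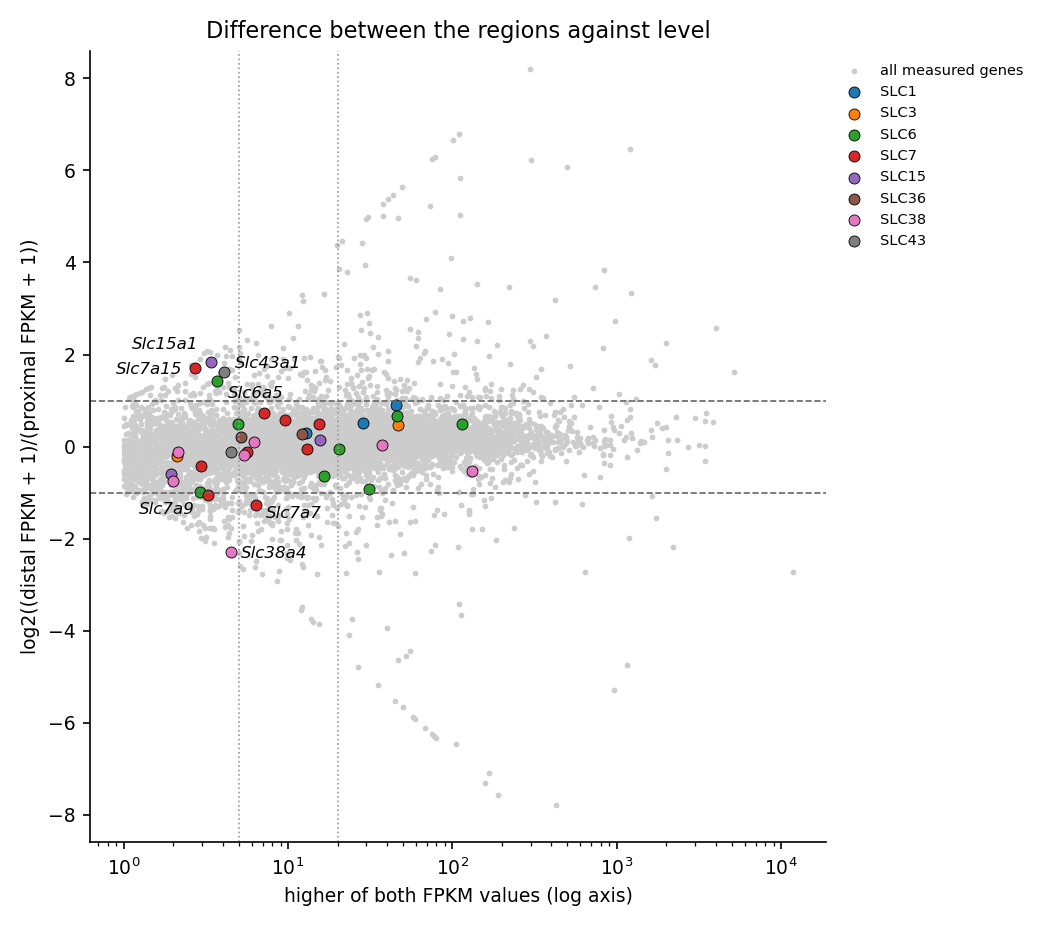
Log2 ratio of distal over proximal crypts (y axis) against the higher of both FPKM values (x axis, log scale) for 9847 measured genes in grey and 36 members coloured by SLC family. Dashed lines mark 2-fold and dotted lines 5 and 20 FPKM. The 7 named members lie outside the dashed lines, and none of them exceeds 6.38 FPKM.

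Levels were spread over nearly 3 orders of magnitude. In the distal library the creatine carrier Slc6a8 led at 114 FPKM, followed by Slc38a2 at 90.9, Slc3a2 at 46.6, Slc6a14 at 46.2 and Slc1a5 at 45.4 FPKM. In the proximal library Slc38a2 led at 131 FPKM, followed by Slc6a8 at 81.1, Slc38a1 at 36.1, Slc3a2 at 33.6 and Slc6a6 at 31.1 FPKM. The order of neighbours in these rankings has no replicate check. Summed over all 63 members, the level was 597 FPKM in distal crypts and 552 FPKM in proximal crypts, which was 0.129% and 0.134% of all FPKM in those libraries. By family the sums were 86.8 and 54.0 FPKM in distal and proximal crypts for SLC1 and 141.7 FPKM in distal crypts and 187 FPKM in proximal crypts for SLC38. All 3 measured SLC1 members had the higher value in the distal library, and 5 of 7 measured SLC38 members had it in the proximal library, or 6 and 7 of 7 under the 2 rescalings. Before rescaling, the larger value was distal for 6044 of all 9847 measured genes and proximal for 3803. The direction of 3 SLC1 members was thus, before rescaling, also that of most measured genes. All 3 SLC1 members kept the higher value in the distal library under both rescalings. Their median log2 ratio was 0.421 at equal medians, beside 0 over all measured genes. At equal upper quartiles it was 0.355, beside -0.06 over all measured genes.

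**Figure D2:**
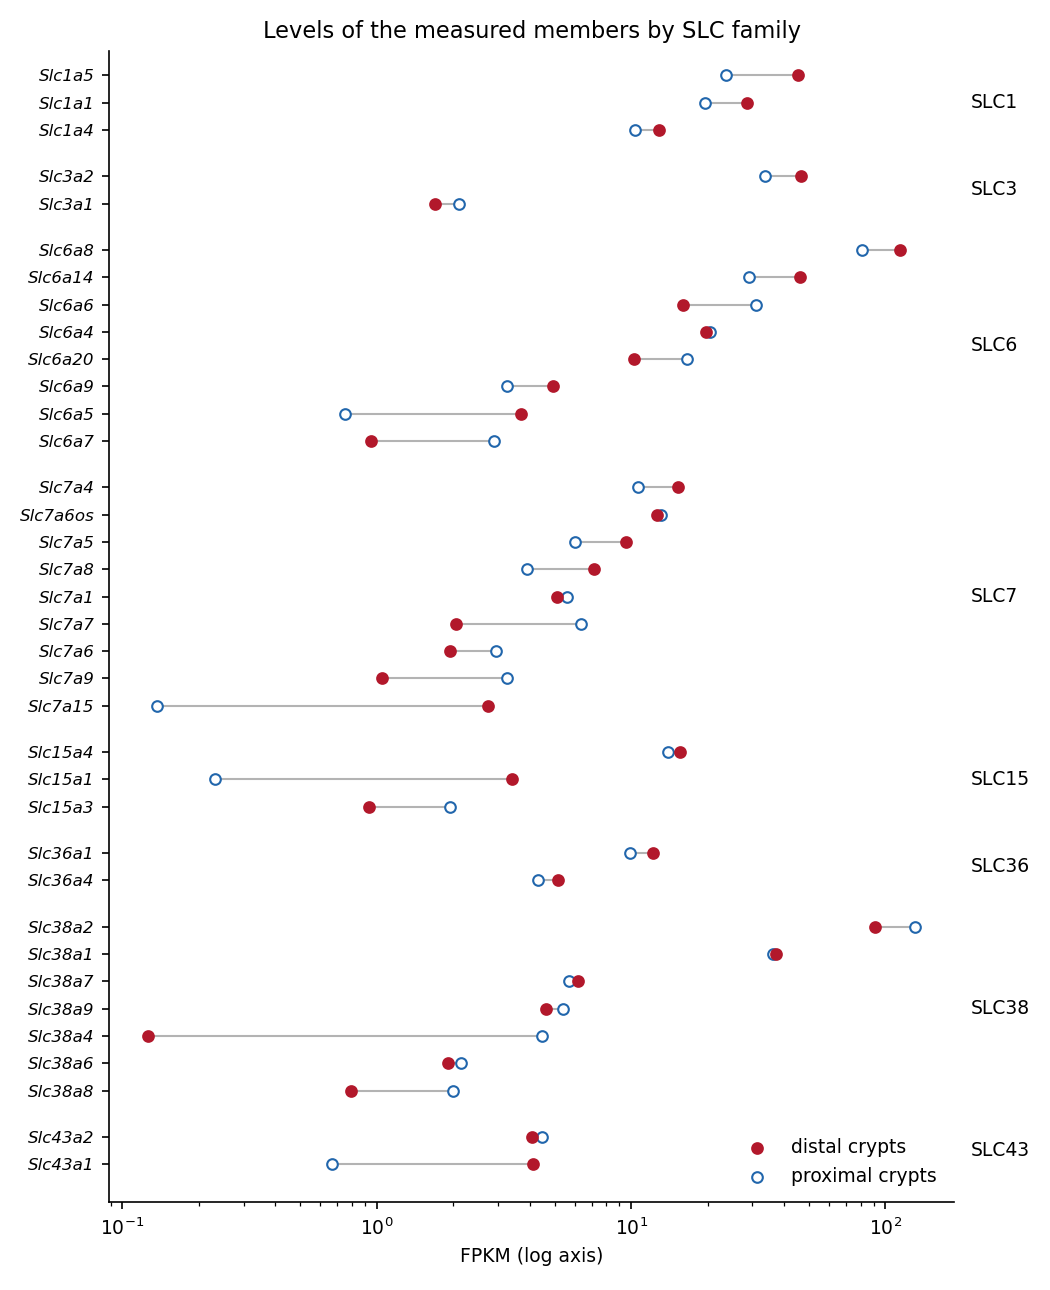
FPKM (x axis, log scale) of the 36 measured members in distal crypts (filled red) and proximal crypts (open blue), grouped by SLC family and ordered by level within it. Gaps are widest for Slc38a4, Slc7a15 and Slc15a1, and the 9 members that reach 20 FPKM lie less than 2-fold apart.

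To show the sequence at the start of the members furthest apart in either direction, the promoters of the 4 genes higher in the distal library and of Slc38a4 were read from the RefSeq table of GRCr8, 250 bases before to 50 bases after each annotated start. Their places in GRCr8 are chr15:104949295-104949594 (minus strand) for Slc15a1, chr6:37134452-37134751 (minus strand) for Slc7a15, chr3:90327072-90327371 (plus strand) for Slc43a1, chr1:108781303-108781602 (plus strand) for Slc6a5 and chr7:130082120-130082419 (minus strand) for Slc38a4. Capitals mark the GC box GGGCGG on either strand, a motif bound by Sp1-type factors.
Slc15a1: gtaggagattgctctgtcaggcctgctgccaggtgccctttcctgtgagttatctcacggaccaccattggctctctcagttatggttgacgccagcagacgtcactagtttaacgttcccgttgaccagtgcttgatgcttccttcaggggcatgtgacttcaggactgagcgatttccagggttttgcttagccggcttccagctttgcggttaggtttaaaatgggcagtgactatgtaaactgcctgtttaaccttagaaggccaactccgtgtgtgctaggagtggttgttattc
Slc7a15: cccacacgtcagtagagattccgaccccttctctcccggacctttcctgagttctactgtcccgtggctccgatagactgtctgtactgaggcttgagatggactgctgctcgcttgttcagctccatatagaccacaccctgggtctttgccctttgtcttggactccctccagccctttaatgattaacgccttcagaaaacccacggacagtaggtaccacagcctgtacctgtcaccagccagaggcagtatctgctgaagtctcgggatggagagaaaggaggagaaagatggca
Slc43a1: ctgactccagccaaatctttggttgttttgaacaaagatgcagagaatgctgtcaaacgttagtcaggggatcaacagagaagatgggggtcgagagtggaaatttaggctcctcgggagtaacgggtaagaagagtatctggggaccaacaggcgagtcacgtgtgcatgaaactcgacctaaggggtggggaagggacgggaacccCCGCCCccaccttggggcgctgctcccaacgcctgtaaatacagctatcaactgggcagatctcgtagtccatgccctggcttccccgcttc
Slc6a5: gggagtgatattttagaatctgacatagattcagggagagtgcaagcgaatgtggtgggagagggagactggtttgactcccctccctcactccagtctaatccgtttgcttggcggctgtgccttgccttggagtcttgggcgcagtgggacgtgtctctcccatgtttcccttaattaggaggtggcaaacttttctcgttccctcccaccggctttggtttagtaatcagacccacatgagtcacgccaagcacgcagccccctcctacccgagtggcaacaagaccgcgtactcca
Slc38a4: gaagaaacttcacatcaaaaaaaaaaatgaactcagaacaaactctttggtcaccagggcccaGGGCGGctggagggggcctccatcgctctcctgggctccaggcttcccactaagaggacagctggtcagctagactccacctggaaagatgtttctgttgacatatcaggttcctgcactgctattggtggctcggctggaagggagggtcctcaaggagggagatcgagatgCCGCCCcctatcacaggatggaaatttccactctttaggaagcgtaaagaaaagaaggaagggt
Slc43a1 held 1 GC box and Slc38a4 held 2, while the letters were not in the windows of Slc15a1, Slc7a15 and Slc6a5. Among the 48 members with an entry in the promoter table, 22 held a GC box. Of all 33469 promoters, counted by entry and not by symbol, 33.1% held one.

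A second motif, TGATGNAAN on either strand, is the core of the amino acid response element, through which the factor ATF4 raises transcription when amino acids run short. It stood in the promoters of 3 of the 48 members, Slc38a1, Slc7a1 and Slc1a4, and in 3.97% of all promoters. None of the 5 promoters above held it. The 3 matches are shown in capitals with up to 15 bases of the window on each side, at chr7:129681520-129681558 (minus strand) for Slc38a1, chr12:11664443-11664481 (plus strand) for Slc7a1 and chr14:98761775-98761812 (minus strand) for Slc1a4 in GRCr8.
Slc38a1: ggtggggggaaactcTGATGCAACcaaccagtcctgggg
Slc7a1: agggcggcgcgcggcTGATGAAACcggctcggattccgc
Slc1a4: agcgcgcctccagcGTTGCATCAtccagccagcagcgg
These 3 genes had log2 ratios of 0.04, -0.12 and 0.29, all under 2-fold. A match of letters is a description and not a site of binding.

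Of the peptide carriers, Slc15a1 had the higher value in the distal library and Slc15a3 in the proximal one. Slc15a1, the brush border carrier of dipeptides and tripeptides known as PepT1, stood at 3.41 FPKM in distal crypts and 0.231 FPKM in proximal crypts. In rn4 the gene spans bases 106550096 to 106592594 of chromosome 15. The authors' deposited table gave it a log2 fold change of 3.88 (implied standard error 1.37, q = 0.0745), and did not call it. The lower value lies under the level of 3 reads given above for genes of about 942 bases, a level that falls with length. Its read count is not known. The implied error was the highest of the 36 measured members.

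Slc15a3 and Slc15a4 carry peptides and histidine out of lysosomes and related compartments and are known from immune cells. Slc15a3 stood at 0.933 FPKM in distal crypts and 1.94 FPKM in proximal crypts, a log2 ratio of -0.60. Of 8 listed lymphocyte markers, the 7 in the table summed to 11.9 FPKM in distal crypts and 38.5 FPKM in proximal crypts, none of them at 0. Of these, 4 were higher in proximal crypts by 2-fold or more, Ptprc and Gzmb among them, beside 3.91% of all measured genes. Cd3g was near equal at 6.49 FPKM in distal crypts and 6.37 FPKM in proximal crypts. The 4 of 5 myeloid markers in the table summed to 5.42 FPKM in distal crypts and 15.3 FPKM in proximal crypts, again with none at 0. Lyz2, whose reads may include those of an overlapping gene, made up most of that gap, and the other 3 summed to 2.93 FPKM in distal crypts and 4.12 FPKM in proximal crypts. Their part in the value of Slc15a3 was not tested. Slc15a4 had similar levels, 15.6 FPKM in distal crypts and 13.9 FPKM in proximal crypts. Slc15a2, the peptide carrier of kidney and brain, stood at 0.0392 and 0.0949 FPKM in distal and proximal crypts, and Slc15a5 was listed at 0 in both.

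Of the heavy chains, Slc3a2 (4F2hc, or CD98) was abundant in both regions, at 46.6 FPKM in distal crypts and 33.6 FPKM in proximal crypts. Slc3a1 (rBAT), the heavy chain of the brush border cystine carrier, was low in both, at 1.70 FPKM in distal crypts and 2.11 FPKM in proximal crypts. Neither was 2-fold apart. The 6 known light chains of Slc3a2 in the table summed to 20.9 FPKM in distal crypts and 19.6 FPKM in proximal crypts, below the level of their heavy chain in each.

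The light chains of Slc3a2 differed in direction among themselves. Slc7a7 (y+LAT1), which exports cationic amino acids across the basolateral membrane in exchange for neutral ones, stood at 2.05 FPKM in distal crypts and 6.38 FPKM in proximal crypts, 3.12-fold higher in the proximal one. The authors' deposited table gave it a log2 fold change of -1.64 (implied standard error 0.60, q = 0.0875), and did not call it. Slc7a7 is also known from macrophages. Each myeloid marker in the table had the higher value in proximal crypts. Lyz2, whose reads may include those of an overlapping gene, stood at 2.50 FPKM in distal crypts and 11.1 FPKM in proximal crypts. The other 3 were under 2-fold apart, and of them Csf1r and Itgam were under 1 FPKM in both libraries. The part of these markers in the value of Slc7a7 was not tested. Slc7a8 (LAT2), a basolateral exchanger of neutral amino acids, went the other way, at 7.15 FPKM in distal crypts and 3.89 FPKM in proximal crypts, a log2 ratio of 0.74. Both genes lie on chromosome 15 of rn4, Slc7a7 at 32431748 to 32471526 and Slc7a8 at 32800927 to 32860797, with 329.4 kb between them.

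Slc7a5 (LAT1), which takes up large neutral amino acids in dividing cells, stood at 9.54 FPKM in distal crypts and 6.03 FPKM in proximal crypts. Slc7a6 (y+LAT2) had the opposite direction at a lower level, 1.94 FPKM in distal crypts and 2.95 FPKM in proximal crypts. Neither was 2-fold apart or called in the authors' deposited table. Slc7a11 (xCT), the cystine and glutamate exchanger, stood at 0.222 and 0.180 FPKM in distal and proximal crypts, and Slc7a10 at 0.0489 FPKM in distal crypts and 0.175 FPKM in proximal crypts, so neither was measured. Slc7a10 shares its locus in the table with Lrp3, whose reads it could hold.

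The main light chain of Slc3a1 was higher in proximal crypts. Slc7a9 (b0,+AT), which with Slc3a1 takes up cystine and cationic amino acids in kidney and small intestine, stood at 1.05 FPKM in distal crypts and 3.25 FPKM in proximal crypts, 3.10-fold higher in the proximal one. On the log2 ratio scale it lay just past 2-fold, at -1.05. The authors' deposited table gave it a log2 fold change of -1.63 (implied standard error 0.71, q = 0.233). Slc7a13, another known partner of Slc3a1 in rodent kidney, was listed at 0.0465 FPKM in distal crypts and at 0 in proximal crypts, with the p-value that in the authors' deposited table is commonest for such genes and is taken to mark a single read.

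Slc7a15, a light chain described in mouse as preferring aromatic amino acids, stood at 2.73 FPKM in distal crypts and 0.136 FPKM in proximal crypts, on chromosome 6 at 32091833 to 32103160 of rn4. The authors' deposited table called it, with a log2 fold change of 4.32 (implied standard error 0.91, q = 0.000133). Its proximal value lies under the level of 3 reads given above for genes of about 942 bases, a level that falls with length. The cationic amino acid carrier Slc7a1 (CAT1) differed little, at 5.10 FPKM in distal crypts and 5.62 FPKM in proximal crypts. Slc7a4, a relative of CAT1 with no settled substrate, stood at 15.3 FPKM in distal crypts and 10.6 FPKM in proximal crypts. Slc7a2 stood at 0.0339 and 0.363 FPKM in distal and proximal crypts, and Slc7a3, Slc7a12 and Slc7a14 were listed at 0 in both. Slc7a6os, the member that is no carrier, stood at 12.6 FPKM in distal crypts and 13.1 FPKM in proximal crypts.

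**Figure D3:**
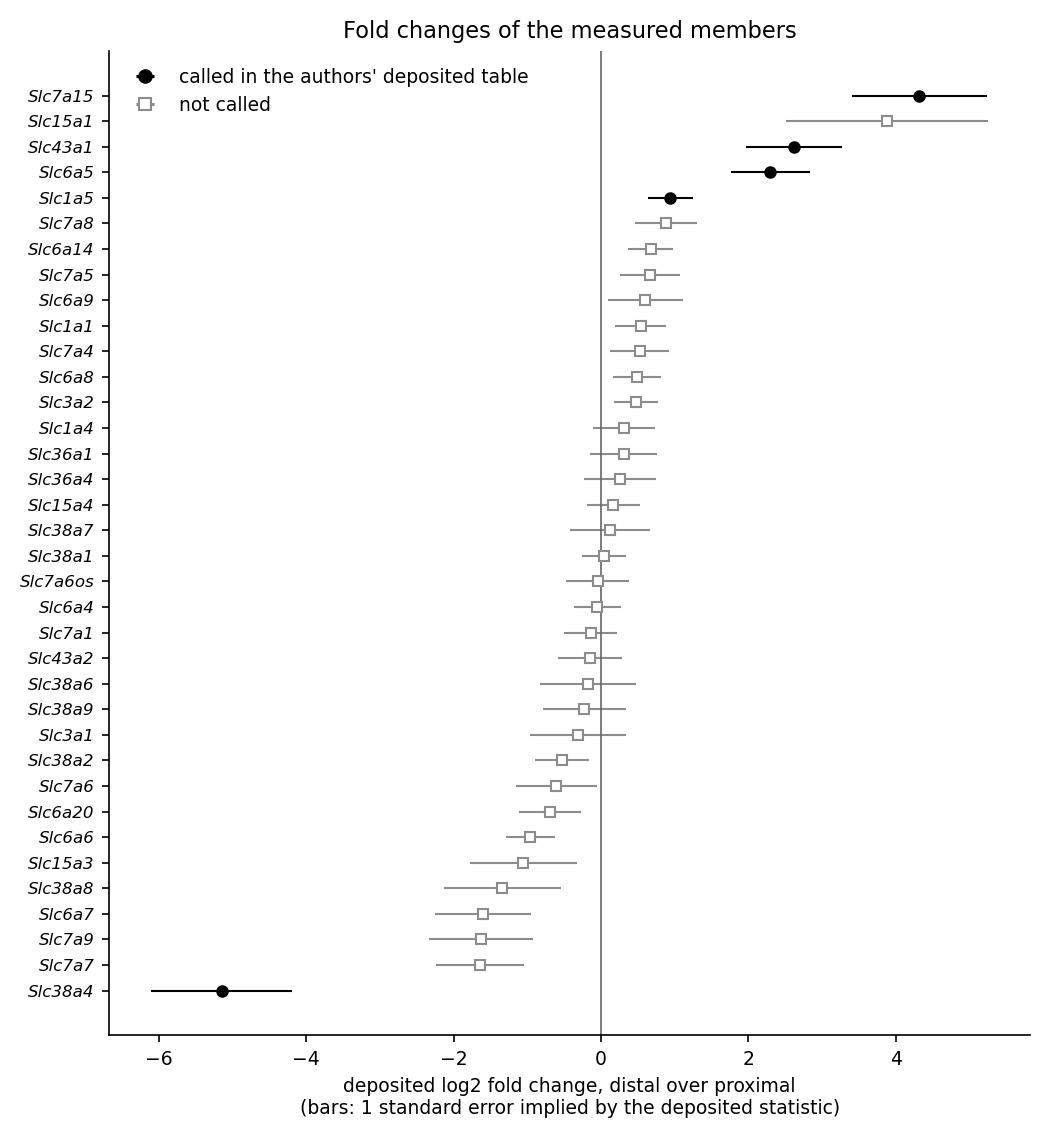
Log2 fold change of distal over proximal crypts from the authors' deposited table (x axis) for the 36 measured members, with 1 implied standard error as bars. Filled circles are the 5 members that table calls, from Slc7a15 at 4.32 to Slc38a4 at -5.15, and open squares are the others.

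In SLC1, which carries acidic amino acids and exchanges small neutral ones, Slc1a5 (ASCT2), an exchanger that supplies cells with glutamine, stood at 45.4 FPKM in distal crypts and 23.7 FPKM in proximal crypts. That is 1.92-fold and just under 2-fold on the log2 ratio scale, at 0.91. The authors' deposited table called it, with a log2 fold change of 0.94 (implied standard error 0.30, q = 0.0403). Its relative Slc1a4 (ASCT1) stood at 12.8 FPKM in distal crypts and 10.4 FPKM in proximal crypts. Slc1a1 (EAAC1), the glutamate carrier of epithelia, stood at 28.4 FPKM in distal crypts and 19.5 FPKM in proximal crypts. The glutamate carriers known from glia and neurons were under 0.3 FPKM in both libraries: Slc1a2 at 0 and 0.266 FPKM, Slc1a3 at 0 and 0.185 FPKM and Slc1a6 at 0.0937 and 0 FPKM in distal and proximal crypts, with Slc1a7 listed at 0 in both. The 7 of 8 listed markers of enteric neurons and glia that are in the table summed to 3.09 FPKM in distal crypts and 3.79 FPKM in proximal crypts, with Sox10 at 0 in both and Gfap at 0 in the proximal library.

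Within SLC6 the carriers of glycine and proline went both ways. Slc6a5 (GlyT2), the glycine carrier of inhibitory nerve endings, stood at 3.70 FPKM in distal crypts and 0.750 FPKM in proximal crypts, 4.93-fold higher in the distal one, on chromosome 1 at 99741713 to 99793301 of rn4. The authors' deposited table called it, with a log2 fold change of 2.30 (implied standard error 0.54, q = 0.000837). Slc6a7, the proline carrier of brain, stood at 0.953 FPKM in distal crypts and 2.89 FPKM in proximal crypts, a log2 ratio of -0.996, just inside 2-fold. The neuronal marker Elavl4 was at 0.0542 FPKM in distal crypts and 0.0638 FPKM in proximal crypts.

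Slc6a20, a carrier of proline and other imino acids in the brush border, stood at 10.3 FPKM in distal crypts and 16.6 FPKM in proximal crypts, a log2 ratio of -0.64. Slc6a9 (GlyT1) stood at 4.94 FPKM in distal crypts and 3.25 FPKM in proximal crypts. It shares its locus in the table with Ccdc24, so its value can hold reads of that gene.

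Of the 4 SLC6 carriers of neutral amino acids, 1 was measured. Slc6a14 (ATB0,+), which takes up neutral and cationic amino acids, stood at 46.2 FPKM in distal crypts and 29.0 FPKM in proximal crypts, a log2 ratio of 0.66 that the authors' deposited table did not call (q of 0.270). Slc6a19 (B0AT1), the main neutral amino acid carrier of the small intestine, stood at 0.173 FPKM in distal crypts and 0.791 FPKM in proximal crypts and so was not measured. Tmem27, the partner that brings it to the membrane in kidney, was listed at 0 in both. Slc6a15 and Slc6a18 were listed at 0 in both.

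The other measured SLC6 members carry no amino acid of proteins. Slc6a8, the creatine carrier, stood at 114 FPKM in distal crypts and 81.1 FPKM in proximal crypts, a log2 ratio of 0.48. Slc6a6, the taurine carrier, had the opposite direction, at 16.0 FPKM in distal crypts and 31.1 FPKM in proximal crypts, 1.95-fold higher in the proximal one. The authors' deposited table gave Slc6a6 a log2 fold change of -0.96 (implied standard error 0.33, q = 0.0644), and did not call it. Slc6a4, the serotonin carrier of the gut epithelium, had near equal levels of 19.7 FPKM in distal crypts and 20.4 FPKM in proximal crypts. This stood beside an endocrine marker list, all 6 of 6 in the table and none at 0. The list summed to 239 FPKM in distal crypts and 403 FPKM in proximal crypts but did not move as one. By 2-fold or more, 4 were higher in proximal crypts (Chga, Chgb, Tph1 and Slc18a1) and 1 in distal crypts (Pyy). The shares over all measured genes were 3.91% and 3.71%. Slc18a1 stood at 4.08 FPKM in distal crypts and 26.6 FPKM in proximal crypts. Tph1, the enzyme of serotonin synthesis, stood at 4.87 FPKM in distal crypts and 17.3 FPKM in proximal crypts, Pyy, a peptide hormone, at 87.3 FPKM in distal crypts and 43.1 FPKM in proximal crypts and the hormone gene Gcg at 68.2 FPKM in distal crypts and 76.3 FPKM in proximal crypts. Among carriers of GABA and betaine, those under 1 FPKM in both libraries included Slc6a11 at 0.0919 and 0 FPKM and Slc6a12 at 0 and 0.168 FPKM in distal and proximal crypts. Slc6a2, the noradrenaline carrier, stood at 0.353 and 0 FPKM in distal and proximal crypts, and Slc6a3 and Slc6a13 were listed at 0 in both.

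In SLC38, the sodium-coupled carriers of small neutral amino acids and glutamine, 1 gene stood far from its neighbours. Slc38a4 (SNAT4), best known from liver and placenta, stood at 0.126 FPKM in distal crypts and 4.47 FPKM in proximal crypts, a log2 ratio of -2.28. It was the member furthest apart on this scale. The authors' deposited table called it, with a log2 fold change of -5.15 (implied standard error 0.96, q = 5.92e-06). Its distal value lies under the level of 3 reads given above for genes of about 942 bases, a level that falls with length.

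Slc38a4 lies on chromosome 7 of rn4 at 135693014 to 135750703, in a row with Slc38a1 at 135252263 to 135316256 and Slc38a2 at 135365172 to 135377341. The gaps are 48.9 kb between Slc38a1 and Slc38a2 and 315.7 kb between Slc38a2 and Slc38a4. Slc38a1 (SNAT1) had near equal levels, 37.1 FPKM in distal crypts and 36.1 FPKM in proximal crypts. Slc38a2 (SNAT2), which cells raise when amino acids run short, stood at 90.9 FPKM in distal crypts and 131 FPKM in proximal crypts, 1.44-fold higher in the proximal one and not called in the authors' deposited table.

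The other measured SLC38 members were low. Slc38a9, a lysosomal carrier that reports arginine to the growth kinase mTORC1, stood at 4.61 FPKM in distal crypts and 5.41 FPKM in proximal crypts. The lysosomal glutamine carrier Slc38a7 stood at 6.18 FPKM in distal crypts and 5.69 FPKM in proximal crypts, and Slc38a6 at 1.90 FPKM in distal crypts and 2.15 FPKM in proximal crypts. Slc38a8 stood at 0.789 FPKM in distal crypts and 1.996 FPKM in proximal crypts, 2.53-fold higher in the proximal one by the plain ratio but -0.74 on the log2 ratio scale. Slc38a3 and Slc38a5 held what is taken as a single read in distal crypts and were listed at 0 in proximal crypts.

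Of the 3 SLC43 members, 1 was higher in the distal library. Slc43a1 (LAT3), a carrier of leucine, phenylalanine and other large neutral amino acids, stood at 4.10 FPKM in distal crypts and 0.667 FPKM in proximal crypts, 6.15-fold higher in the distal one, on chromosome 3 at 68049296 to 68090034 of rn4. The authors' deposited table called it, with a log2 fold change of 2.62 (implied standard error 0.65, q = 0.00212). Its relative Slc43a2 (LAT4), a basolateral exporter of such amino acids, was not 2-fold apart, at 4.06 FPKM in distal crypts and 4.48 FPKM in proximal crypts. Slc43a3 was listed at 0 in the distal library and at 0.0513 FPKM in the proximal one. The proton-coupled carriers of SLC36 differed little, with Slc36a1 (PAT1) at 12.2 FPKM in distal crypts and 9.88 FPKM in proximal crypts and Slc36a4 at 5.16 FPKM in distal crypts and 4.32 FPKM in proximal crypts. Slc36a2 and Slc36a3, which lie next to Slc36a1 on chromosome 10, were listed at 0 in both.

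In all, 27 members were under 1 FPKM in both libraries. Of these 11 were listed at 0 in both, 4 at 0 in the distal library alone, 6 at 0 in the proximal library alone, and 6 were above 0 in both. The highest value among the 27 was 0.791 FPKM. A listing at 0 is not a sign of absence at this depth.

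Epithelial markers led in both libraries, beside lower levels of markers of other cells. The 9 of 10 listed epithelial markers in the table, none at 0, summed to 11827 FPKM in distal crypts and 8528 FPKM in proximal crypts. Within the epithelium the lists were mixed. The 6 of 6 goblet markers, none at 0, summed to 7323 FPKM in distal crypts and 3362 FPKM in proximal crypts, while Spink4 among them stood at 68.0 FPKM in distal crypts and 236 FPKM in proximal crypts. The 6 of 6 colonocyte markers, none at 0, summed to 2714 FPKM in distal crypts and 12730 FPKM in proximal crypts. Without Car1 the sums were 934 FPKM in distal crypts and 999.975 FPKM in proximal crypts, and Aqp8 stood at 27.5 FPKM in distal crypts and 2.93 FPKM in proximal crypts. The 7 fibroblast markers summed to 8.33 FPKM in distal crypts and 16.5 FPKM in proximal crypts, of which Vim alone gave 7.07 FPKM in distal crypts and 13.6 FPKM in proximal crypts, 5 were under 1 FPKM in both libraries and Dcn was listed at 0 in both. The 4 mast cell markers, none at 0, summed to 15.3 FPKM in distal crypts and 26.4 FPKM in proximal crypts, each with the higher value in proximal crypts. The 4 of 5 smooth muscle markers in the table summed to 4.63 FPKM in distal crypts and 1.48 FPKM in proximal crypts, led in distal crypts by Des, and Cnn1 was at 0 in proximal crypts. The 3 erythrocyte markers, none at 0, summed to 161 FPKM in distal crypts and 95.7 FPKM in proximal crypts. The part of these differences in the members' values was not tested.

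Other genes of amino acid handling were mostly under 2-fold apart, as were all but 7.62% of all measured genes. Of 27 measured genes of the response to amino acid shortage, 2 were higher in distal crypts and 1 in proximal crypts by 2-fold or more. The shares over all measured genes were 3.71% and 3.91%. The median log2 ratio of the 27 genes was 0.23, beside 0.09 over all measured genes. Atf4, the factor that drives this response, stood at 250 FPKM in distal crypts and 171 FPKM in proximal crypts, a log2 ratio of 0.55. Atf3, a stress-induced factor, stood at 39.7 FPKM in distal crypts and 12.5 FPKM in proximal crypts, and Phgdh, the first enzyme of serine synthesis, at 12.7 FPKM in distal crypts and 4.92 FPKM in proximal crypts. Cth, which makes cysteine from cystathionine, stood at 46.5 FPKM in distal crypts and 113 FPKM in proximal crypts.

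The 32 measured genes of amino acid metabolism had a median of 0.15. Of them, 1 was higher in each region by 2-fold or more, beside 3.71% (distal) and 3.91% (proximal) of all measured genes. Arg1, an arginase and the one higher in distal crypts, stood at 1.86 FPKM in distal crypts and 0.245 FPKM in proximal crypts. All 22 measured genes of amino acid sensing by mTORC1 were under 2-fold apart (median 0.04), from -0.74 for Sesn3 to 0.50 for Eif4ebp1.

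Among 14 measured partners and other carriers of amino acids, Cd44, a surface protein that steadies Slc7a11 at the membrane, was the exception, at 12.1 FPKM in distal crypts and 48.1 FPKM in proximal crypts. The median of this list was 0.10. The basolateral aromatic amino acid carrier Slc16a10 stood at 2.68 FPKM in distal crypts and 3.03 FPKM in proximal crypts.

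Peptidases, which yield the peptides and amino acids that these carriers take up, went both ways, with a median of 0.03. Of 15 measured genes, 3 were higher in distal crypts and 2 in proximal crypts by 2-fold or more. The shares over all measured genes were 3.71% and 3.91%. Dpp4 stood at 67.0 FPKM in distal crypts and 15.5 FPKM in proximal crypts, and Mme, or neprilysin, at 4.10 FPKM in distal crypts and 0.441 FPKM in proximal crypts. Ace, the angiotensin-converting enzyme, stood at 1.34 FPKM in distal crypts and 14.9 FPKM in proximal crypts, and Xpnpep2, an aminopeptidase that cuts before proline, at 2.41 FPKM in distal crypts and 9.79 FPKM in proximal crypts. The remaining one was the aminopeptidase Anpep, at 2.52 FPKM in distal crypts and 0.628 FPKM in proximal crypts. The authors' deposited table called all 5, beside 5.43% of all genes it tested. With equal upper quartiles the median was -0.06 over all measured genes, -0.09 over the measured members, 0.07 for the response to shortage, -0.01 for metabolism, -0.12 for sensing, -0.06 for partners and -0.13 for peptidases, so the signs of the members and of the last 4 lists rest on the scaling.

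**Figure D4:**
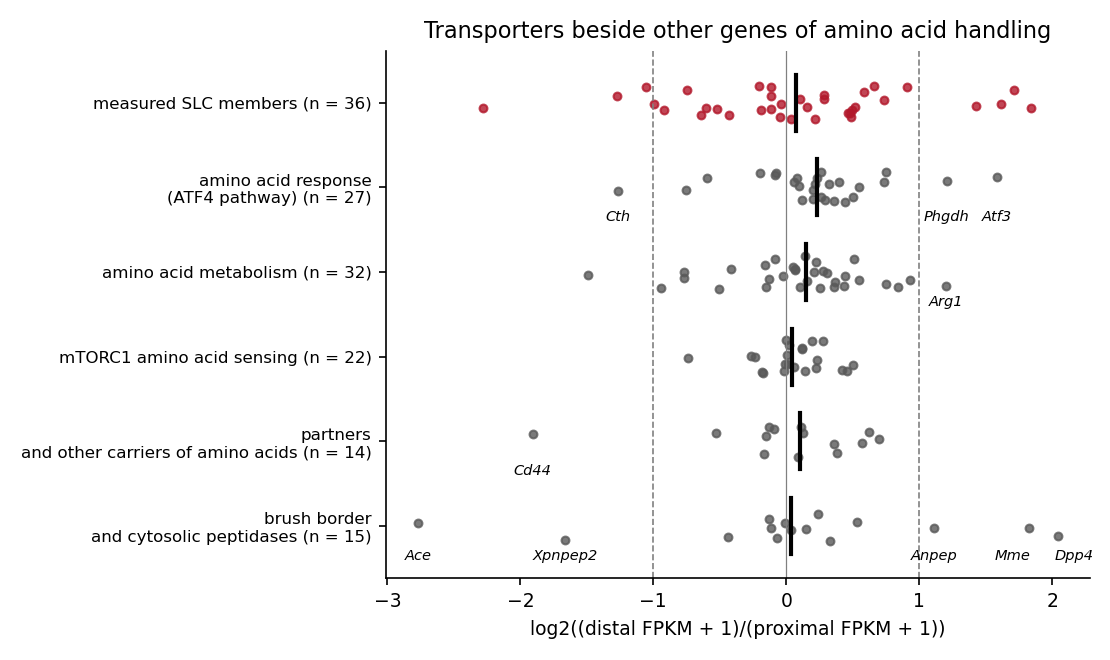
Log2 ratio of distal over proximal crypts (x axis) for the 36 measured members in red and the measured genes of 5 related lists in grey, 1 point per gene, with the median as a black bar. Medians lie between 0.03 and 0.23 with the libraries as deposited and those of the members and of 4 of the 5 related lists are negative with equal upper quartiles, dashed lines mark 2-fold, and 10 related genes outside them are named.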

How the data were processed

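RNA of colon crypts was analysed from 1 distal and 1 proximal library, each made from the pooled samples of 7 rats, per the labels. The 5 chromatin immunoprecipitation libraries were not analysed here. CASAVA, TopHat2 and the build rn4 are named for the RNA samples per the submitters' processing notes, and which program wrote the table is not stated. Values were read as the authors' FPKM, since they are not whole and differ in sum between libraries. Columns were assigned by the region printed in the table and the sample descriptions per the labels.

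The deposited table also gives, per gene, the log2 fold change, its statistic, the p-value and q-value and a call. Dividing that log2 fold change by its statistic gave the implied standard error. The authors' scaling between libraries is not stated in the sources used here.

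Of 16492 rows, those marked as tested or not tested were kept, 1 per gene, which left 16468. Members that reached 1 FPKM in either library count as measured, and the log2 ratio used a pseudocount of 1 FPKM. Measured members at least 2-fold apart, called members, the 3 highest of each family and those next to 2-fold were named by rule. Elavl4, Sesn3, Eif4ebp1, Atf4, Slc16a10, single marker genes and the members under 1 FPKM were named outside it, after their values were seen. The members and lists were chosen with earlier results of these data known. Loci were moved to count from 1. Of the 63 symbols, 62 were current in the RefSeq table of GRCr8, which gave the promoters, matched by symbol. Motifs were searched on both strands, and the GC box was chosen after the promoters were seen. A few genes, named neither here nor in the plots, are not reported here. The calculation of the ratio was tried on simulated data, and no result here rests on that trial. Python 3.11.15, NumPy 2.4.6, pandas 2.3.3 and matplotlib 3.10.9 were used. Alternatives were other pseudocounts, minimums, folds and scalings, and leaving out genes that share a locus.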

Additional observations from a re-analysis of the deposited data

How the results depend on the processing

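As reported, 4 members were higher in distal crypts and 3 in proximal crypts by 2-fold or more. These counts were 4 and 5 with a pseudocount of 0.1 FPKM, with the distal library rescaled to a median log2 ratio of 0, and with equal upper quartiles. They were 0 and 0 with a pseudocount of 5 FPKM, 0 and 1 with a minimum of 5 FPKM, 7 and 8 at 1.5-fold and 0 and 1 at 4-fold. They did not move with no minimum or without genes sharing a locus. The median log2 ratio of 0.07 was -0.023 and -0.086 under the 2 rescalings and 0.18 with a minimum of 5 FPKM. The cause was not tested beyond what these settings leave out or shrink: the members furthest apart lie under 7 FPKM. Of 27 named members under 4 settings, 99 log2 ratios moved by less than their implied standard error and 9 moved by more. The 9 were those of Slc6a5, Slc7a15, Slc15a1, Slc38a4 and Slc43a1 under other pseudocounts, such as Slc38a4 at -4.34 with 0.1 FPKM and -0.89 with 5 FPKM. Among members at least 2-fold apart or called in the authors' deposited table, 0 changed sign. Some named members near 0 did change sign. Slc38a1 went from 0.04 to -0.06 and -0.13 under the 2 rescalings. With equal upper quartiles, Slc38a7 went from 0.10 to -0.04 and Slc15a4 from 0.15 to -0.006. No paired analysis was possible because each region has 1 library, and no replicate could be left out.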
